A study of Homo sapiens with 12 samples.

Results

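RNA of MCF10A cells after 72 h in doxycycline (Dox) was compared with RNA of the same cells after 24 h in Dox, to ask which genes went on changing once the transgene was induced. MCF10A is a non-tumorigenic, immortalised line of human breast epithelium. The cells carried a tet-inducible TAZ-4SA, a constitutively active form of the co-activator TAZ, and received Dox (0.05 µg/mL) for 24 h (the group Dox 24 h), 48 h (Dox 48 h) or 72 h (Dox 72 h, titled 72rs in the labels), or none (No Dox). Each group held 3 libraries, so the comparison used 6 of 12 libraries by their titles, and the Dox 48 h and No Dox groups are given beside it. Both sides of the comparison carried the induced transgene. Cells with Dox but without the transgene, and No Dox cells of matching age, are not among the groups, so active TAZ, the drug and culture age cannot be told apart as sources of a change. All groups grew in medium with EGF, insulin, hydrocortisone, cholera toxin and horse serum. The labels do not say whether the replicates were separate cultures, and p-values may therefore reflect technical spread alone.

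TAZ, the protein of WWTR1, is restrained by the Hippo kinases LATS1 and LATS2, which phosphorylate it so that it is held in the cytoplasm or degraded. Active TAZ enters the nucleus and binds TEAD factors at enhancers and promoters, often beside AP-1 factors. In mammary epithelium TAZ is known for its part in growth, migration and the choice between basal and luminal states.

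Levels are in CPM, the count of a gene scaled to the size of its library, and changes are log2 fold changes of 72 h against 24 h from edgeR's quasi-likelihood test, so that a positive value is higher at 72 h. A call required an adjusted p (Benjamini-Hochberg) below 0.05 together with a log2 fold change of 1 or more in size. Where no member of a gene list is given as called in a direction, DESeq2 called none there either. Totals were 15382564 to 26570132 counts per library. In bulk RNA, fewer cells of a type and less RNA per cell cannot be told apart. The 10 epithelial markers summed to 9496 to 10595 CPM at 24 h and 10658 to 11499 CPM at 72 h, and all 10 had counts. Of the 10 leukocyte markers, 3 had counts at either time, PTPRC and the T and B cell markers were at 0, and the sums were 9.12 to 11.5 and 10.8 to 11.69 CPM. Of the 10 fibroblast markers, 5 had counts at either time, with PDGFRA, COL1A2, COL3A1, THY1 and DPT at 0. Their sums were 26.98 to 29.3 CPM at 24 h and 23.0 to 23.2 CPM at 72 h. The endothelial markers summed to 1.996 to 3.27 CPM at 24 h and 11.95 to 13.4 CPM at 72 h, with ERG and EMCN at 0, and the receptor gene KDR made up most of the 72 h sum. The 6 adipocyte markers summed to 0.245 to 0.665 CPM at 24 h and 0.495 to 0.751 CPM at 72 h. The part of other cells in the results was not tested.

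The total of WWTR1 reads, from the transgene and the endogenous gene together, differed by less than the fold threshold. WWTR1 (ENSG00000018408.13, chromosome 3, 149517235 to 149736714, minus strand, GRCh38) was at 811, 943 and 907 CPM at 24 h and 974, 1061 and 948 CPM at 72 h (log2 fold change 0.16, SE 0.06, adjusted p = 0.0301), and at 71.7 CPM without Dox. The 72 h libraries all lay above the 24 h libraries, by a margin far under the fold threshold. The files do not separate reads of the transgene from those of the endogenous gene. The mean effective length that RSEM gave WWTR1, which follows the mix of transcripts, was 1091 ± 51.1 nt at 24 h and 1111 ± 11.5 nt at 72 h (SD, n = 3; two-sided exact permutation p = 0.8, where 0.1 is the smallest p that 3 against 3 can give).

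Of 14822 genes tested, 1227 were called higher at 72 h (8.28%) and 592 were called lower (3.99%), and the counts of each gene list below stand beside these shares. Without the fold threshold, 8992 genes (60.7%) passed the adjusted p, 4517 of them higher and 4475 lower. Genes that pass the adjusted p also pass the unadjusted p, so at least 60.7% of all genes do. List counts given at unadjusted p under 0.05 stand beside that share. The median log2 fold change of all tested genes was 0.01. The largest changes were few, with 94 of the genes called higher and 25 of those called lower at an absolute log2 fold change of 3 or more. Among protein-coding genes 831 were called higher and 473 lower, and among long noncoding RNAs 284 were called higher and 75 lower.

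**Figure D1:**
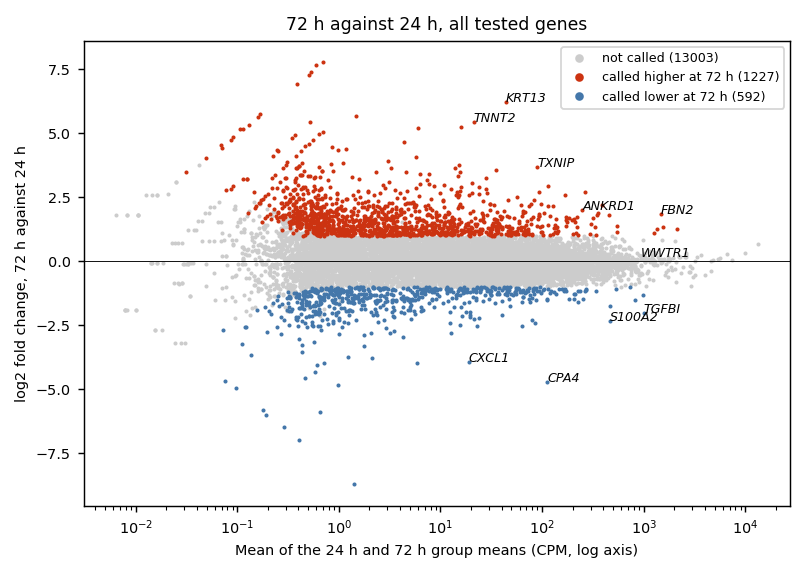
Each point is a tested gene, placed by the mean of its 24 h and 72 h levels (CPM, log axis) and its log2 fold change of 72 h against 24 h. The 1227 genes called higher are red and the 592 called lower are blue, and genes with no count in either group are not drawn.

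Several of the genes with the greatest rise were barely present at 24 h and belong to differentiated epithelium or to other tissues. KRT13, a keratin of stratified mucosa, stood at 1.17, 0.784 and 1.63 CPM at 24 h and 91.4, 76.7 and 93.9 CPM at 72 h (log2 fold change 6.22, SE 0.17, adjusted p = 5.28e-17). Its 72 h libraries lay far above the 24 h libraries, which were near the No Dox mean of 0.961 CPM. TNNT2, the cardiac form of troponin T, likewise without overlap, was at 0.842, 1.18 and 0.847 CPM at 24 h and 41.4, 39 and 44.3 CPM at 72 h (log2 fold change 5.43, SE 0.16, adjusted p = 1.22e-16). The serpin gene SERPINB3, whose protein inhibits cysteine proteases, was at 0.421, 0.294 and 0.242 CPM at 24 h and 8.46, 8.58 and 8.16 CPM at 72 h (log2 fold change 4.66, SE 0.27, adjusted p = 7.26e-12). SERPINB4, its close relative, had 1 count at 24 h and 63 at 72 h, a ratio of 59.4 after scaling to library totals (95% exact interval 10.3 to 2381, counting error only). Without Dox their means were 2.65 CPM for SERPINB3 and 1.86 CPM for SERPINB4. KDR, a VEGF receptor, was at 0.234, 0.588 and 0.0605 CPM at 24 h and 12.5, 11.5 and 11.3 CPM at 72 h (log2 fold change 5.22, SE 0.24, adjusted p = 1.88e-13). Other genes in this set were LAPTM5 (log2 fold change 5.24), which encodes a lysosomal membrane protein, CYP4B1 (4.09), a cytochrome P450, and VIPR1 (3.90), a receptor for vasoactive intestinal peptide.

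LAPTM5, KDR and CYP4B1, like both serpins, had been higher without Dox than at 24 h. LAPTM5 was at 35.7 CPM without Dox, 0.842 at 24 h, 5.57 at 48 h and 31.3 at 72 h. KDR followed the same order, at 27.6 CPM without Dox, 0.294 at 24 h, 2.58 at 48 h and 11.75 at 72 h. CYP4B1 was at 42.9 CPM without Dox, 0.631 at 24 h, 4.4 at 48 h and 10.9 at 72 h. In KRT13 and TNNT2 the No Dox level was as low as that at 24 h, and TNNT2 stood at 0.429 CPM without Dox, 0.955 at 24 h, 12.9 at 48 h and 41.6 at 72 h.

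**Figure D2:**
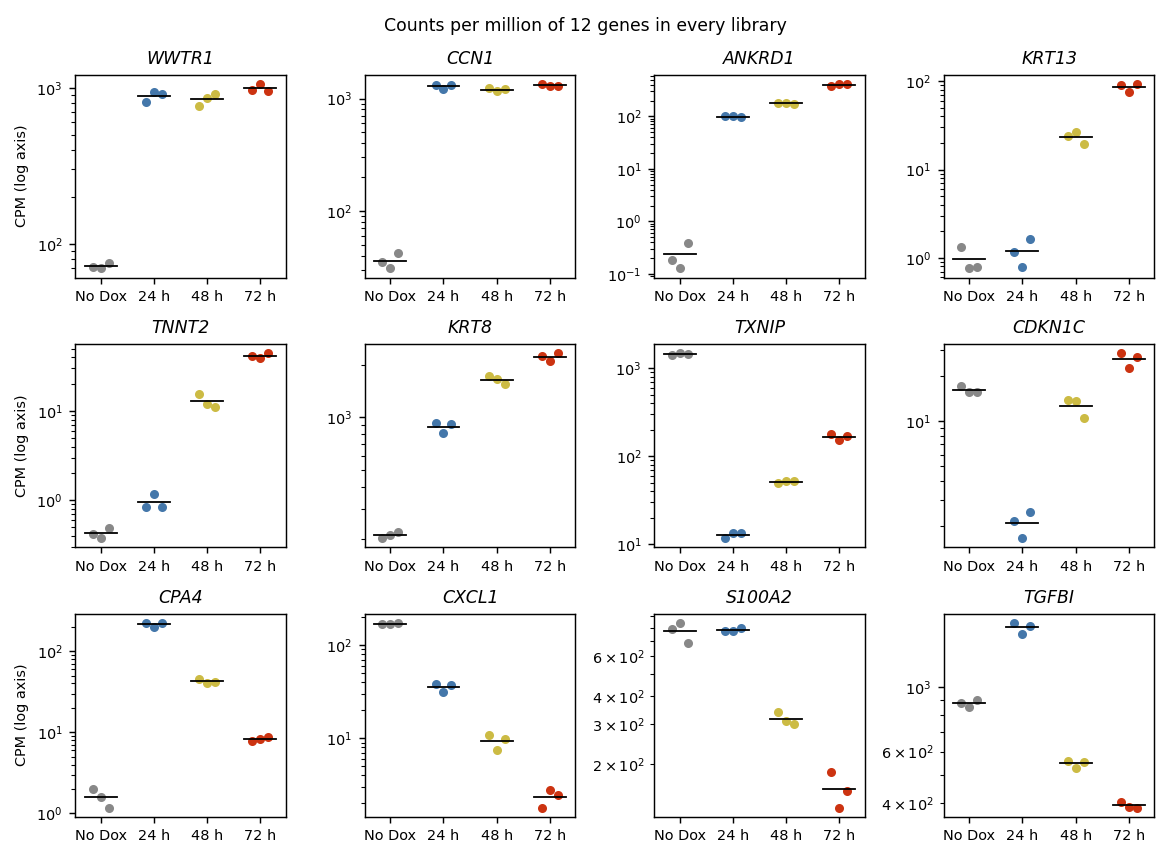
Each panel shows 1 gene in the 12 libraries (points, CPM on a log axis) with the group mean as a line. WWTR1 and CCN1 stayed near their 24 h level, KRT13 and TNNT2 rose from about 1 CPM at 24 h, TXNIP rose from 12.9 CPM towards its No Dox level, and CPA4 fell from 215 CPM at 24 h to 8.27 CPM at 72 h.

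The genes with the greatest fall included matrix and protease genes. CPA4, a metallocarboxypeptidase (chromosome 7, 130293134 to 130324180, plus strand), was at 224, 202 and 221 CPM at 24 h and 7.77, 8.27 and 8.77 CPM at 72 h (log2 fold change -4.70, SE 0.08, adjusted p = 1.44e-19). It had been at 1.6 CPM without Dox, so that its 24 h level was the highest of the 4 groups and its 72 h libraries still lay above the No Dox mean. TNC, which encodes the matrix glycoprotein tenascin-C, was at 10.7, 11.5 and 11 CPM at 24 h and 0.391, 1.19 and 0.61 CPM at 72 h (log2 fold change -3.98, SE 0.26, adjusted p = 4.37e-11). PTX3, a secreted pattern recognition protein, fell from 109 to 19.1 CPM (log2 fold change -2.51). GLIPR1 fell by 2.47 on the log2 scale and the cell adhesion gene AMIGO2 by 2.27. In these 5 genes the No Dox mean was below the 24 h mean.

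Other genes that fell had been about as high or higher without Dox. COL17A1, a collagen of hemidesmosomes, was at 447 CPM without Dox, 144 at 24 h, 49.7 at 48 h and 27 at 72 h (log2 fold change -2.41, SE 0.06, adjusted p = 2.57e-17). CXCL1, a chemokine for neutrophils, was at 169.6 CPM without Dox, 35.8 at 24 h, 9.42 at 48 h and 2.33 at 72 h (log2 fold change -3.95, SE 0.13, adjusted p = 1.66e-15). The calcium-binding protein gene S100A2 was at 776, 774 and 796 CPM at 24 h and 185, 129 and 153 CPM at 72 h (log2 fold change -2.33, SE 0.09, adjusted p = 1.75e-14), and its No Dox mean of 771 CPM was near its 24 h mean.

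The most abundant called genes were largely those of keratin filaments and extracellular matrix. FBN2, a component of microfibrils, was at 604, 674 and 650.5 CPM at 24 h and 2407, 2322 and 2182 CPM at 72 h (log2 fold change 1.84, SE 0.07, adjusted p = 9.02e-15). The simple epithelial keratins KRT8 and KRT18, which pair with each other, were called higher as well. KRT8 was at 924, 815 and 917 CPM at 24 h and 2247, 2104 and 2337 CPM at 72 h (log2 fold change 1.33, SE 0.06, adjusted p = 3.54e-14), and KRT18 had a log2 fold change of 1.25. The metallothionein gene MT2A (1.24), the fibulin family gene EFEMP1 (1.09) and the matrix protein gene CCDC80 (1.13) were also higher. TGFBI, a secreted adhesion protein induced by TGF-beta, was at 1665, 1524 and 1629 CPM at 24 h and 402, 388 and 385 CPM at 72 h (log2 fold change -2.04, SE 0.05, adjusted p = 6.21e-18). The mitochondrial MT-ND1 fell by 1.32 on the log2 scale. CAVIN1, a coat protein of caveolae, lay at the threshold (log2 fold change -1.001, SE 0.05, adjusted p = 1.19e-12) and lost its call without 24 h replicate 1 (-0.97) or 3 (-0.98) and without 72 h replicate 2 or 3 (both -0.99). For each of these genes the 3 libraries at 72 h lay on 1 side of the 3 at 24 h, as did 1184 of the 1227 genes called higher, 562 of the 592 called lower and 63.3% of all tested genes.

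In the YAP/TAZ target signature 2 of 22 genes were called higher and 1 lower, close to the 8.28% and 3.99% of all tested genes. The median log2 fold change was 0.19 beside 0.01 for all genes tested. Regardless of fold, 12 of the 22 were higher and 7 lower at adjusted p under 0.05, beside 60.7% of all genes that passed. CCN1, which encodes a matricellular protein, was at 1330.2, 1217 and 1309 CPM at 24 h and 1353, 1281 and 1283 CPM at 72 h (log2 fold change 0.02, SE 0.06, adjusted p = 0.782), and the groups overlapped. CCN2, its relative, was at 87.6, 89.3 and 88.4 CPM at 24 h and 113, 105 and 100.1 CPM at 72 h (log2 fold change 0.26, SE 0.07, adjusted p = 0.0035). The members called higher were ANKRD1 and CCDC80. ANKRD1, a nuclear ankyrin repeat protein, was at 102, 100.4 and 95 CPM at 24 h and 375, 407 and 418 CPM at 72 h (log2 fold change 2.01, SE 0.06, adjusted p = 1.19e-16), and without Dox it stood at 0.235 CPM. FJX1, a secreted kinase-like protein, was called lower, at 96.5 CPM at 24 h and 42.6 at 72 h (log2 fold change -1.18).

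None of the 27 Hippo pathway components was called by edgeR in either direction, beside 8.28% and 3.99% of all genes. At adjusted p under 0.05 and any fold, 9 were higher and 5 lower, beside 60.7% of all genes that passed. AMOTL2, an adaptor that binds YAP and TAZ, had a log2 fold change of 0.12 and LATS2 one of 0.59. Among 8 TAZ, YAP, TEAD and VGLL factors, VGLL3, a cofactor that also binds TEAD, was called higher, at 38.6, 45.9 and 41.5 CPM at 24 h and 149, 152 and 135 CPM at 72 h (log2 fold change 1.79, SE 0.07, adjusted p = 2.43e-14). TEAD1 (0.22), TEAD3 (0.67), TEAD4 (-0.40) and YAP1 (-0.01) stayed within the fold threshold.

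The AP-1 factors, DNA-binding partners of TAZ and TEAD at many enhancers, split in direction. FOSL1 was at 127, 113 and 107 CPM at 24 h and 38.1, 48.2 and 44.2 CPM at 72 h (log2 fold change -1.42, SE 0.08, adjusted p = 2.45e-12), and JUN fell by 1.23 on the log2 scale. FOS was at 1.12, 1.62 and 1.21 CPM at 24 h and 7.19, 7.64 and 7.21 CPM at 72 h (log2 fold change 2.47, SE 0.17, adjusted p = 7.21e-11). FOSL2, at 174 CPM at 24 h and 340.4 at 72 h, missed the fold threshold (log2 fold change 0.97, adjusted p = 6.89e-12). Without Dox, FOS was far above its 72 h level and FOSL1 below its 72 h level, while JUN and FOSL2 were near theirs. Of the 13 members tested, 2 were called higher and 3 lower.

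The EGF-family ligands HBEGF and NRG1 were called lower, with log2 fold changes of -1.27 and -1.30, and EPGN, a ligand of the EGF receptor, was called higher (1.37). AREG, at 820.4 CPM at 24 h and 977 at 72 h, was higher by less than the fold threshold (0.25). ERRFI1, an inhibitor of the EGF receptor, was at 39.7, 42.6 and 39.5 CPM at 24 h and 148, 143 and 145 CPM at 72 h (log2 fold change 1.84, SE 0.05, adjusted p = 3.41e-17). Of 22 TGF-beta, BMP and ID genes, 2 were called higher and 5 lower, beside 8.28% and 3.99% of all genes. The inhibitors of DNA binding parted, with log2 fold changes of 1.59 for ID1 and -1.21 for ID3. Among 20 WNT pathway genes 3 were called in each direction, WNT5A being higher (2.08) and the antagonist DKK1 lower (-1.51).

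**Figure D3:**
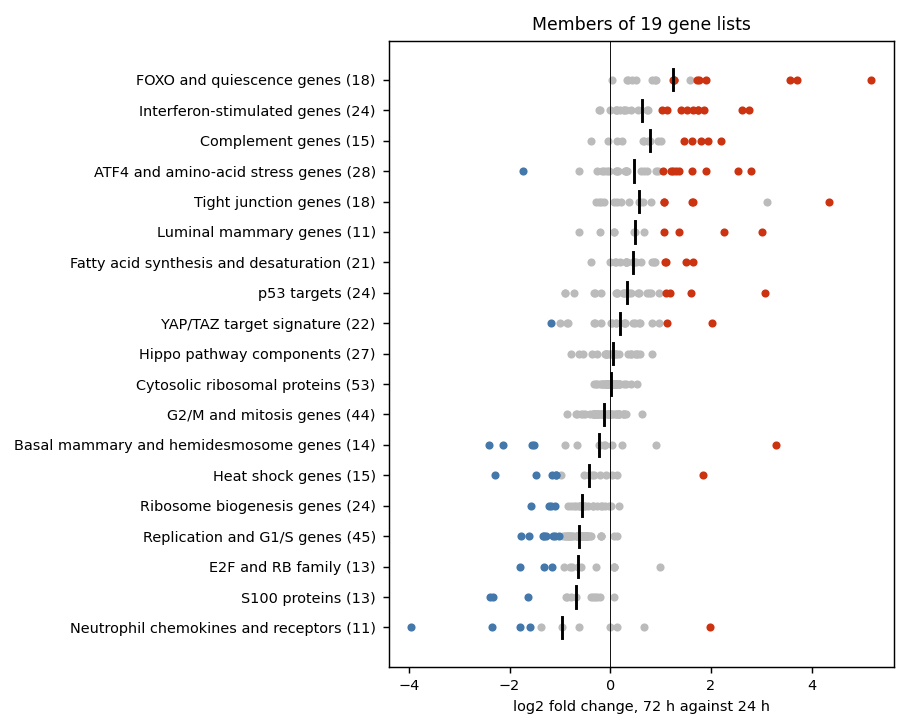
Points are the tested members of 19 gene lists (number tested in parentheses) by log2 fold change of 72 h against 24 h, red where called higher, blue where called lower and grey where not called. Black bars mark medians, which ran from 1.25 for the FOXO and quiescence genes to -0.95 for the neutrophil chemokines and receptors.

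Genes of FOXO activity and quiescence had the highest median among the lists drawn. FOXO factors act when insulin and growth factor signals are low and turn on genes of cell cycle exit and metabolism. Of 18 members tested, 9 were called higher and none lower by edgeR, with 15 higher and 0 lower at unadjusted p under 0.05, and the median log2 fold change was 1.25. TXNIP, which binds thioredoxin and limits glucose uptake, was at 11.8, 13.6 and 13.4 CPM at 24 h and 181, 151 and 169 CPM at 72 h (log2 fold change 3.70, SE 0.07, adjusted p = 5.70e-19). Its No Dox mean was 1447 CPM, so that the 72 h libraries remained far below the untreated ones. TSC22D3, a glucocorticoid-induced leucine zipper gene, was at 5.38, 5.34 and 5.75 CPM at 24 h and 73.2, 57.2 and 64.9 CPM at 72 h (log2 fold change 3.57, SE 0.09, adjusted p = 2.57e-17), beside 304 CPM without Dox. KLF9 rose from 5.11 to 18.9 CPM. DEPP1, a FOXO target, had 0 counts at 24 h and 14 at 72 h, a ratio of 4.396 to a floor of 3 counts over the group. The counting error of the 14 counts is not in that ratio, and DEPP1 stayed far below its No Dox level.

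Among 15 G1 cyclins and CDK inhibitors 4 were called higher and 1 lower. CDKN1C, the CDK inhibitor p57, was at 2.15, 1.67 and 2.48 CPM at 24 h and 28.4, 22.5 and 26.7 CPM at 72 h (log2 fold change 3.64, SE 0.15, adjusted p = 2.05e-14). CDKN1A, the CDK inhibitor p21, was at 111, 105 and 114 CPM at 24 h and 333, 289 and 318 CPM at 72 h (log2 fold change 1.52, SE 0.06, adjusted p = 2.21e-14). CCNG2, an atypical cyclin of quiescent cells, and BTG2, an antiproliferative gene, were higher by 2.24 and 1.499 on the log2 scale. CCND1, which encodes cyclin D1, was at 728, 706 and 732 CPM at 24 h and 329, 354 and 339 CPM at 72 h (log2 fold change -1.08, SE 0.04, adjusted p = 2.59e-14).

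Among the replication and G1/S genes, 8 of 45 were called lower and none higher by edgeR, with 1 higher and 42 lower at unadjusted p under 0.05 and a median of -0.62. CCNE1, which encodes cyclin E1, was at 23.4, 27.4 and 23.4 CPM at 24 h and 7.28, 6.58 and 7.82 CPM at 72 h (log2 fold change -1.77, SE 0.11, adjusted p = 2.18e-11). The replication factor gene MCM10 was at 71.2, 78.4 and 72.4 CPM at 24 h and 25.9, 32.5 and 30.7 CPM at 72 h (log2 fold change -1.32, SE 0.08, adjusted p = 2.20e-11). Among 13 E2F and RB family genes 3 were called lower and none higher by edgeR, with 1 higher and 9 lower at unadjusted p under 0.05 and a median of -0.64, and E2F2 was at 19.9, 20.8 and 22.7 CPM at 24 h and 5.57, 5.7 and 6.79 CPM at 72 h (log2 fold change -1.80, SE 0.11, adjusted p = 1.86e-11). The means of these genes at 72 h were between those at 24 h and those without Dox for MCM10 and E2F2, and CCNE1 at 7.23 CPM was near its No Dox mean of 8.74 CPM.

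Of 44 G2/M and mitosis genes none was called by edgeR, with 10 higher and 24 lower at unadjusted p under 0.05, and the median was -0.13. MKI67, a proliferation marker, was at 607, 621 and 621 CPM at 24 h and 546, 643 and 567 CPM at 72 h (log2 fold change -0.07, SE 0.06, adjusted p = 0.283), and the groups overlapped. Of 24 ribosome biogenesis genes 4 were called lower and none higher by edgeR, with 1 higher and 20 lower at unadjusted p under 0.05 and a median of -0.55. Among them RRS1 was at 118, 108 and 117 CPM at 24 h and 36.5, 40.5 and 38.3 CPM at 72 h (log2 fold change -1.57, SE 0.06, adjusted p = 9.58e-15). None of the 53 cytosolic ribosomal protein genes was called by edgeR, with 9 higher and 8 lower at unadjusted p under 0.05, and their median was 0.01. Among 15 heat shock genes 5 were called lower and 1 higher, and HSPA1A, an inducible HSP70 chaperone, was at 268 CPM at 24 h and 96.7 at 72 h (log2 fold change -1.47).

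Of 24 p53 targets, 4 were called higher and none lower by edgeR, with a median of 0.33, beside 8.28% of all genes called higher. At adjusted p under 0.05 and any fold, 16 were higher and 5 lower, beside 60.7% of all genes that passed. GDF15, a stress-induced cytokine, was at 3.98, 4.02 and 5.26 CPM at 24 h and 45.6, 32.3 and 32.6 CPM at 72 h (log2 fold change 3.07, SE 0.16, adjusted p = 1.19e-12). BBC3, which encodes the pro-apoptotic PUMA, was at 4.7 CPM at 24 h and 10.7 at 72 h (1.18). CDKN1A and BTG2, called higher above, were not members of this list. Of 13 BCL2 family genes 2 were called higher and none lower by edgeR, with 5 higher and 7 lower at unadjusted p under 0.05 and a median of -0.28. HRK, a pro-apoptotic member, was at 6.83, 7.5 and 6.41 CPM at 24 h and 55.4, 46.2 and 47 CPM at 72 h (log2 fold change 2.84, SE 0.09, adjusted p = 6.63e-16).

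Of 24 interferon-stimulated genes 10 were called higher and none lower by edgeR, beside 8.28% of all genes called higher, with 14 higher and 1 lower at unadjusted p under 0.05 and a median of 0.64. These genes answer to interferon through STAT and IRF factors that bind an interferon-stimulated response element, here searched as GAAA followed after any 2 bases by a second GAAA, on either strand, in the 300 bases around each RefSeq gene start. The element was found in 13 of 20 promoters of the list (65.0%) and in 2.84% of the 10813 tested genes with a promoter in the table. Stretches of the promoters of the 4 called members with the largest change that held it are shown with the element in capitals, 5′ to 3′ on the strand of the gene (GRCh38.p14), and the 2 matches in the stretch of IFIT1 lie on the opposite strand.
IFITM1 (chr11:313975-314034, plus strand): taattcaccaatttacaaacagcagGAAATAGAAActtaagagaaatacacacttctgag
IFI44L (chr1:78620259-78620318, plus strand): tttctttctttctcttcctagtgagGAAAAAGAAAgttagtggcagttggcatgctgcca
IFIT1 (chr10:89392482-89392541, plus strand): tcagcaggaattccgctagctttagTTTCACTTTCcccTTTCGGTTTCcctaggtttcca
DDX60 (chr4:168318806-168318865, minus strand): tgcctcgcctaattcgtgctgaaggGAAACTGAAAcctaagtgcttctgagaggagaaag

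IFITM1, which restricts the entry of viruses, was at 0.561, 0.49 and 0.424 CPM at 24 h and 3.91, 3.13 and 3.09 CPM at 72 h (log2 fold change 2.75, SE 0.25, adjusted p = 7.05e-09). IFIT1, which binds viral RNA, was at 4.87, 4.95 and 5.32 CPM at 24 h and 18.7, 15.5 and 16 CPM at 72 h (log2 fold change 1.73, SE 0.13, adjusted p = 4.34e-10). IFIT2, its relative, was at 3.84, 3.19 and 5.08 CPM at 24 h and 22.5, 23.2 and 26.9 CPM at 72 h (log2 fold change 2.61, SE 0.13, adjusted p = 9.53e-13). In these 3 genes every 72 h library lay above every 24 h library. STAT2, a subunit of the factor that binds the element, was at 18.9, 19.1 and 19.1 CPM at 24 h and 63, 57.6 and 57.7 CPM at 72 h (log2 fold change 1.65, SE 0.07, adjusted p = 3.54e-14). The No Dox levels differed within the list, IFITM1 being at 6.37 CPM without Dox, 0.492 at 24 h, 1.26 at 48 h and 3.38 at 72 h and IFIT2 at 2.94 CPM without Dox, 4.03 at 24 h, 9.58 at 48 h and 24.2 at 72 h. None of the 14 MHC class I presentation genes, which also respond to interferon, was called by edgeR, with 4 higher and 5 lower at unadjusted p under 0.05. The interferon-stimulated response element was in 63.6% of 11 promoters of that list.

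**Figure D4:**
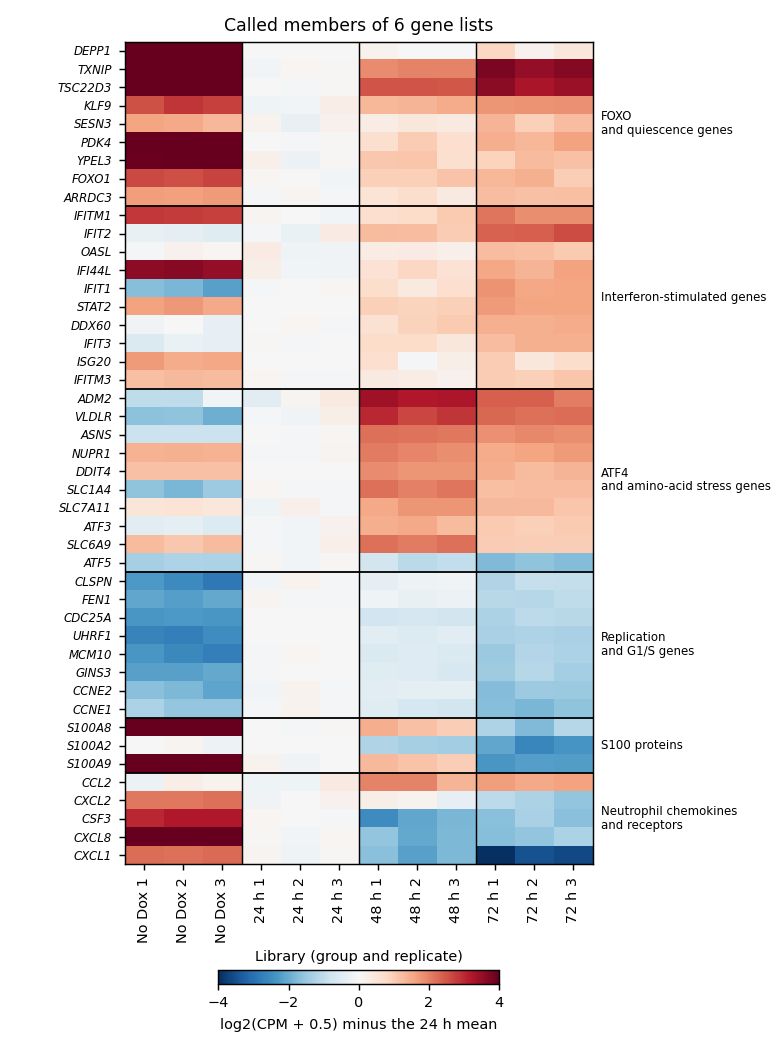
Rows are the called members of 6 gene lists and columns the 12 libraries. Colour gives log2(CPM + 0.5) minus the 24 h mean of the gene, cut at 4 in each direction, and shows TXNIP and TSC22D3 rising in part towards No Dox while ASNS and VLDLR stood above their 24 h and No Dox levels from 48 h on.

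The ATF4 pathway answers to shortage of amino acids and to ER stress. Of 28 of its genes 9 were called higher and 1 lower, with a median of 0.47. ATF4 and its partners bind an amino-acid response element, searched here as TGATGNAA on either strand. It was found in 23.1% of 26 promoters of the list and in 1.68% of all 10813. It was also in 31.8% of 22 promoters of tRNA synthetases. Of 27 tRNA synthetases tested, 1 was called lower and none higher by edgeR, beside 3.99% and 8.28% of all genes. The called members in the table that held it are shown in the same way.
ASNS (chr7:97872444-97872501, minus strand): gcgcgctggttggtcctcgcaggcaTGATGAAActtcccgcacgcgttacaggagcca
ATF3 (chr1:212565191-212565248, plus strand): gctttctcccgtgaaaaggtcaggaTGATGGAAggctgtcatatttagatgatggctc

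ASNS, asparagine synthetase, was at 44.6, 42.5 and 46.2 CPM at 24 h and 161, 171 and 164 CPM at 72 h (log2 fold change 1.89, SE 0.05, adjusted p = 9.10e-17). It was already at 199.9 CPM at 48 h. VLDLR, a lipoprotein receptor, was at 1.68, 1.57 and 2.18 CPM at 24 h and 10.9, 10.1 and 10.2 CPM at 72 h (log2 fold change 2.54, SE 0.16, adjusted p = 2.95e-11), and ADM2, a peptide hormone, was at 0.515, 0.98 and 1.27 CPM at 24 h and 6.79, 6.83 and 5.22 CPM at 72 h (log2 fold change 2.79, SE 0.27, adjusted p = 1.86e-08). In all 3 the groups did not overlap. ATF5, a factor of the same family, was the member called lower, at 74.2 CPM at 24 h and 22.4 at 72 h (-1.73). ATF4 itself had a log2 fold change of 0.29. Among enzymes that build amino acids, those called higher included PHGDH of serine synthesis (1.71), CBS of cysteine synthesis (2.36) and ASS1 of arginine synthesis (1.61), with 4 of 23 genes of that list called higher and 1 lower.

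For the replication genes, an E2F element (TTTCCCGC on either strand) was found in 28.9% of 38 promoters of the list and in 2.63% of all 10813. Called members that held it are shown in the same way. Genes from a part of the genome were not considered for display, so this set may be incomplete. Each has the match on the strand opposite to the gene.
GINS3 (chr16:58392441-58392498, plus strand): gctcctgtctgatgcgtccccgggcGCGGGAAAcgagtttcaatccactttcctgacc
UHRF1 (chr19:4909462-4909519, plus strand): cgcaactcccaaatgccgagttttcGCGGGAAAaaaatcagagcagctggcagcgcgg
CLSPN (chr1:35769951-35770008, minus strand): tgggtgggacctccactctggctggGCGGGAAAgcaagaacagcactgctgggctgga

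GINS3, a subunit of the replicative helicase complex, was at 44, 46.4 and 45.9 CPM at 24 h and 16.6, 20.2 and 17.5 CPM at 72 h (log2 fold change -1.33, SE 0.08, adjusted p = 5.13e-12). UHRF1, which helps to maintain DNA methylation, was at 290.2, 287 and 293 CPM at 24 h and 118, 123 and 118 CPM at 72 h (log2 fold change -1.28, SE 0.05, adjusted p = 2.59e-14), and CLSPN, a replication checkpoint adaptor, was at 56.7, 67.3 and 58.1 CPM at 24 h and 26.2, 32.1 and 31.2 CPM at 72 h (log2 fold change -1.03, SE 0.10, adjusted p = 2.01e-08). The groups did not overlap in any of the 3, and CLSPN lost its call without 24 h replicate 2 (-0.95) or 72 h replicate 1 (-0.94). Over all called genes, a TEAD element (GGAATG) was in 10.9% of promoters of genes called higher, 8.74% of those called lower and 10.7% of all. An AP-1 element (TGANTCA) was in 6.33%, 10.4% and 4.63%. The E2F element was in 1.06%, 2.19% and 2.63%, so that genes called lower as a whole held it no more often than all genes. The interferon element was in 4.35%, 2.19% and 2.84%, and the amino-acid element in 3.30%, 1.64% and 1.68%. A sterol element (TCACNCCAC) was in 1.32%, 1.37% and 1.04%, and a CCAAT box in 34.3%, 35.5% and 36.8%. Among 17 promoters of the YAP/TAZ target signature the TEAD element was in 41.2%. All motifs were searched on both strands, and no motif contains another. A match describes the letters in this window and says nothing of binding.

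Of 11 luminal mammary genes 4 were called higher and none lower by edgeR, with 7 higher and 1 lower at unadjusted p under 0.05 and a median of 0.49. ELF3, an epithelial transcription factor, was at 1.54, 1.13 and 1.51 CPM at 24 h and 11, 10.8 and 11.6 CPM at 72 h (log2 fold change 3.002, SE 0.16, adjusted p = 1.24e-12). MUC1, an apical mucin, was at 28.9, 22.1 and 31 CPM at 24 h and 132, 128 and 129 CPM at 72 h (log2 fold change 2.25, SE 0.08, adjusted p = 4.77e-15), and GATA3, a luminal transcription factor, had a log2 fold change of 1.06. The No Dox means of ELF3 and MUC1 were 101 and 193 CPM, above their 72 h means. Of 14 basal and hemidesmosome genes, 4 were called lower and 1 higher. Those called lower included COL17A1, COL7A1 (-2.13) and TP63 (-1.56), a master factor of basal epithelium. NGFR, a receptor of basal cells, was called higher (3.28). At 72 h NGFR, TP63 and COL7A1 were still far below their No Dox levels.

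Keratins moved gene by gene. KRT4, a partner of KRT13, was at 1.78, 1.52 and 1.09 CPM at 24 h and 14.1, 10.4 and 15.7 CPM at 72 h (log2 fold change 3.18, SE 0.19, adjusted p = 1.14e-11). KRT15, a basal keratin, was at 2.11, 1.27 and 1.57 CPM at 24 h and 11.2, 15.9 and 14.1 CPM at 72 h (log2 fold change 3.04, SE 0.16, adjusted p = 1.09e-12). Without Dox, KRT4 was barely present, while KRT15 was far above its 72 h level. KRT14, the main basal keratin, was at 21.2 CPM at 24 h and 10.2 at 72 h (log2 fold change -1.05, SE 0.09, adjusted p = 3.63e-09), a call that was lost, at a log2 fold change of -0.84, once effective lengths entered the edgeR fit. Of 18 tight junction genes 5 were called higher and none lower by edgeR, with 11 higher and 3 lower at unadjusted p under 0.05 and a median of 0.58. CGN, which encodes cingulin, was at 18.1, 17.1 and 17.6 CPM at 24 h and 55.5, 55 and 51.3 CPM at 72 h (log2 fold change 1.61, SE 0.08, adjusted p = 3.53e-13), and the claudin gene CLDN7 was at 37.9 CPM at 24 h and 118 at 72 h (1.65). GRHL3, a factor of barrier formation, rose from 1.4 to 10 CPM (2.86).

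Among 16 mesenchymal and EMT genes 3 were called lower and none higher by edgeR, with 6 higher and 7 lower at unadjusted p under 0.05, and the median was -0.10. SNAI2, a repressor of epithelial genes, was at 26.9, 27.2 and 24.5 CPM at 24 h and 5.67, 6.7 and 5.83 CPM at 72 h (log2 fold change -2.12, SE 0.09, adjusted p = 1.20e-13). Matrix genes were mixed. LOX, which crosslinks collagen and elastin, was at 26.4, 25.9 and 27.3 CPM at 24 h and 146, 137 and 136 CPM at 72 h (log2 fold change 2.40, SE 0.06, adjusted p = 3.34e-17). The basement membrane collagens COL4A3 and COL4A4 were higher by 3.41 and 1.95 on the log2 scale and COL8A1 by 1.69. COL6A3 had 77 counts at 24 h and 1 at 72 h, a ratio of 81.7 (95% exact interval 14.2 to 3270). In the plasminogen and protease list 5 of 14 genes were called lower and 1 higher. PLAU, a plasminogen activator, fell by 1.53 on the log2 scale.

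Inflammatory genes did not move as 1 group. Of 11 neutrophil chemokines and receptors 4 were called lower and 1 higher, with a median of -0.95. CXCL1, CXCL8 (-2.36), CSF3 (-1.80) and CXCL2 (-1.59) were lower, and CCL2, which draws monocytes, was higher (1.98). Of 13 S100 genes 3 were called lower and none higher by edgeR, with 0 higher and 10 lower at unadjusted p under 0.05 and a median of -0.67. TNFAIP3, a feedback inhibitor of NF-kB, fell by 1.98 on the log2 scale, while the NF-kB target ICAM1, an adhesion molecule, was at 36.1, 31.9 and 35.6 CPM at 24 h and 175, 156 and 155 CPM at 72 h (log2 fold change 2.23, SE 0.06, adjusted p = 1.56e-16). Of 15 complement genes 5 were called higher and none lower by edgeR, with 11 higher and 1 lower at unadjusted p under 0.05 and a median of 0.79. C1R, a protease of the classical pathway, was at 4.12, 3.38 and 5.57 CPM at 24 h and 14.6, 14.2 and 15.8 CPM at 72 h (log2 fold change 1.80, SE 0.12, adjusted p = 7.77e-11). Its No Dox mean was 111 CPM, far above the 72 h libraries, and C1S, another protease of that pathway, was at 28.7 CPM without Dox, 0.916 at 24 h, 1.65 at 48 h and 3.53 at 72 h. The acute phase gene SAA1 was at 209, 184 and 216 CPM at 24 h and 760.0, 580.0 and 795 CPM at 72 h (log2 fold change 1.81, SE 0.09, adjusted p = 4.83e-13).

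Of 21 fatty acid genes 4 were called higher and none lower by edgeR, beside 8.28% and 3.99% of all genes, with 17 higher and 1 lower at unadjusted p under 0.05 and a median of 0.45. ACSS2, which makes acetyl-CoA from acetate, was at 44.9, 44.2 and 43.3 CPM at 24 h and 134, 135 and 141 CPM at 72 h (log2 fold change 1.63, SE 0.05, adjusted p = 8.82e-16). In the cholesterol list 1 of 25 genes was called, a share below that of all genes. This was INSIG1, a brake on sterol synthesis (1.30). Regardless of fold, 16 of the 25 were higher and 5 lower at adjusted p under 0.05, beside 60.7% of all genes that passed. The median of the list was 0.32. Metallothioneins MT1X (2.18), MT1E (1.88) and MT2A were higher. Of 32 nuclear respiratory chain genes none was called by edgeR, with 6 higher and 9 lower at unadjusted p under 0.05, while 2 of 13 mitochondrial mRNAs were called lower. PTGS2, the inducible cyclooxygenase, was at 2.2, 2.16 and 2.96 CPM at 24 h and 21.4, 16.9 and 19.1 CPM at 72 h (log2 fold change 2.99, SE 0.15, adjusted p = 4.90e-13). SLC2A3, the glucose transporter GLUT3, had 3 counts at 24 h and 180 at 72 h, a ratio of 56.5 (95% exact interval 19.03 to 277).

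Long noncoding RNAs had a median log2 fold change of 0.25, beside -0.01 for protein-coding genes. H19, an imprinted RNA, was at 27.9, 22.1 and 30.5 CPM at 24 h and 137, 104 and 120.0 CPM at 72 h (log2 fold change 2.17, SE 0.10, adjusted p = 3.36e-13). MALAT1, an abundant nuclear RNA, was at 97, 111 and 103 CPM at 24 h and 316, 361 and 350.2 CPM at 72 h (log2 fold change 1.72, SE 0.06, adjusted p = 6.99e-15). NEAT1, the scaffold of paraspeckles, was at 140.3, 176 and 150.0 CPM at 24 h and 625, 525 and 484 CPM at 72 h (log2 fold change 1.81, SE 0.10, adjusted p = 2.16e-12). Its effective length went from 2832, 3011 and 3236 nt at 24 h to 8778, 6451 and 6743 nt at 72 h, and with effective lengths in the edgeR fit its log2 fold change was 0.52. NEAT1 is made as a short and a long transcript that share their start. Of 8996 genes at 10 CPM or more in both groups, 33 had effective lengths that did not overlap and differed by at least 1.5 times, 8 longer and 25 shorter at 72 h. RAB8B, a small GTPase of membrane traffic, went from 4448 ± 260 nt to 2120 ± 266 nt (SD, n = 3) with a log2 fold change of 0.02, and was chosen after its values were seen.

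The 48 h libraries lay between the other Dox libraries on the first axis of variation and apart from both on the second. Over the 500 most variable genes in the Dox libraries, principal component 1 (58.1% of the variance) gave scores of -27.8 to -24.5 at 24 h, 2.80 to 3.48 at 48 h and 21.2 to 24.3 at 72 h. Principal component 2 (11.2%) gave -15.3 to -10.3 at 48 h, outside 1.07 to 7.61 at 24 h and 5.54 to 8.52 at 72 h. The 48 h mean lay between the others for 88.3% of the genes called higher and 88.2% of those called lower, and for 61.8% of all tested genes. By 48 h the median gene called higher had covered 55.6% of its log2 change and the median gene called lower 51.3%.

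**Figure D5:**
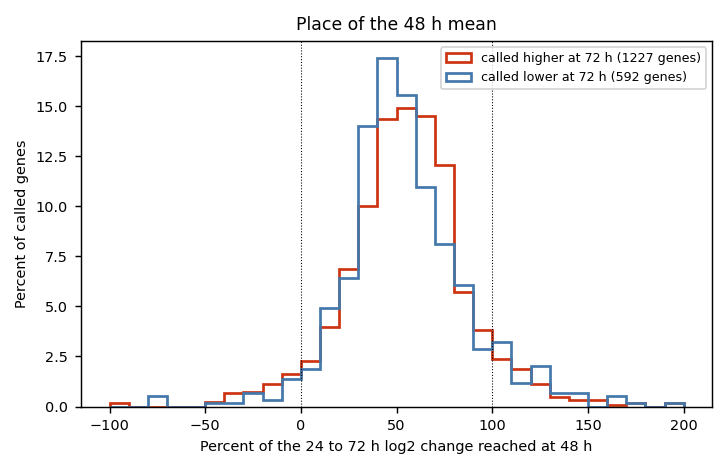
The x axis gives the share of the log2 change from 24 h to 72 h that was present at 48 h, where 0 is the 24 h level and 100 the 72 h level, and the y axis the percent of called genes per bin. Genes beyond the axis are in the end bins, and both distributions centre near the middle, with medians of 55.6% (higher) and 51.3% (lower).

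Of the genes called higher, 85 were above both times at 48 h and 58 below both, and of those called lower 19 were above and 51 below. The change of slope, which is the step from 48 h to 72 h minus the step from 24 h to 48 h, was called upwards for 190 genes (1.28%) and downwards for 260 (1.75%). It also counts genes that level off or speed up without a peak or dip. CHAC1, a glutathione-degrading enzyme and ATF4 target, was at 0.539 CPM without Dox, 2.71 at 24 h, 19.9 at 48 h and 4.38 at 72 h (change of slope -5.06, adjusted p = 5.74e-12). ADM2 was at 0.387 CPM without Dox, 0.922 at 24 h, 13 at 48 h and 6.28 at 72 h. S100A9 was at 516 CPM without Dox, 20.8 at 24 h, 46.2 at 48 h and 3.94 at 72 h, so that it was highest among the Dox groups at 48 h. CSF3, which encodes the growth factor G-CSF, dipped, at 62.7 CPM without Dox, 6.62 at 24 h, 1.14 at 48 h and 1.95 at 72 h (change of slope 3.35, adjusted p = 1.41e-06). ENC1, an actin-binding protein, was at 7.54 CPM without Dox, 64.3 at 24 h, 31.8 at 48 h and 71.6 at 72 h, with little difference between 24 h and 72 h.

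To place the called genes against the untreated cells by the means of other groups, the 48 h and No Dox groups were compared. At 48 h, 1578 genes (10.6%) were called higher and 2140 (14.4%) lower than without Dox. The filter, scaling and estimate of spread came from the fit of all 12 libraries, so the 24 h and 72 h libraries entered there. A fit of the 48 h and No Dox libraries alone called 1501 higher and 2091 lower. Of the 1227 genes called higher at 72 h than at 24 h, 460 were called lower at 48 h than without Dox, 193 were called higher and 574 were not called. Of the 592 genes called lower at 72 h, 161 were called lower at 48 h than without Dox, 123 were called higher and 308 were not called. Among those higher at 72 h, TXNIP, LAPTM5 and ELF3 were called lower at 48 h than without Dox, and KRT13, KRT8 and ANKRD1 were called higher. CPA4 and TGFBI were both lower at 72 h, and at 48 h CPA4 was called higher than without Dox while TGFBI was not called (42.8 beside 1.6 CPM and 547 beside 880.0 CPM).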

How the data were processed

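Poly(A)-selected, dUTP-stranded paired-end RNA libraries were analysed from 12 samples, grouped by title into 4 groups of 3. Per the study's methods the authors used STAR (GRCh38, GENCODE version 22) for alignment and RSEM for quantification. Versions of both, and whether RSEM counted by strand, were not stated there. The deposited tables hold RSEM expected counts, which divide ambiguous reads between genes and need not be whole, and these were rounded. The deposited TPM and FPKM gave no printed value. Gene names came from GENCODE version 44 on the same build and matched 56707 of 60483 rows, 386 of them through transcripts. Promoter sequences came from RefSeq (GRCh38.p14).

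Genes were kept with filterByExpr (14822 genes), scaled by TMM and fitted in 1 edgeR quasi-likelihood model over all 12 libraries (R 4.3.3, edgeR 4.0.16), with a biological coefficient of variation of 5.71%. SEs were derived from the F statistic. Log2 CPM used a prior count of 2. At totals of 15382564 to 26570132 counts, 3 counts over a group equal 0.0508 CPM (24 h) and 0.0479 CPM (72 h). Intervals and floors cover counting error only. A posterior SD from RSEM above 5% of the counts marked shared reads in 79 genes called higher and 45 called lower, none of them named in the text. In simulated counts of 14550 genes for 72 h against 24 h, 99% of genes changed 2-fold and 100% of those changed 4-fold passed the adjusted p. Of these 43% and 100% were called, and 6 unchanged genes were called. The changed genes were drawn only from those past a minimum expected count at 24 h, so these shares do not cover genes of low count.

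Named genes were drawn from a TAZ panel, the 15 highest and 15 lowest protein-coding and 5 highest and 5 lowest lncRNA calls (5 CPM or more, no overlap), the 10 most abundant calls, up to 4 called genes per list and direction (the 2 most abundant where a list had no call), and the 5 most extreme genes each way for the change of slope and for 48 h beyond both times. IFIT1, IFIT3, DDX60, STAT2, UHRF1, CLSPN, ATF4 and CLDN4 were among those added after their values were seen. Some genes that the rule selects are not reported here. The comparison, gene lists and rule were chosen with earlier results of these data known. Deviations of same-numbered 24 h and 72 h libraries correlated at 0.0073, 0.27 and -0.01 over 10745 genes, so replicate numbers were not taken as pairs. Alternatives were other scaling factors and filters, DESeq2 1.42.0 (also with effective lengths), edgeR with effective lengths, glmTreat, no fold threshold, only the groups compared, protein-coding genes alone, a replicate block, and omission of single libraries.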

Additional observations from a re-analysis of the deposited data

How the results depend on the processing

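The counts of genes called higher and lower at 72 h (1227 and 592) stayed within 1.5 times under the other scaling factors, filters, DESeq2 fits and gene sets tried, except where the threshold itself changed. With glmTreat, which tests the fold threshold, they were 465 and 190, and without a fold threshold 4517 and 4475. For 48 h against No Dox, glmTreat called 1410 genes lower (main count 2140), and without a fold threshold 5342 were higher and 5304 lower. The change of slope was called for 21 genes upwards and 69 downwards with glmTreat, for 960 and 1246 without a fold threshold, and for 118 upwards with effective lengths in edgeR. With a replicate block the counts were 1216 higher and 579 lower. The replicate numbers share only a number, so this is no paired result, and of the 249 named calls 1 was lost (CAVIN1). Leaving out 1 library gave 1129 to 1262 genes higher and 547 to 634 lower at 72 h, 1565 to 1622 and 2130 to 2241 at 48 h, and 141 to 188 and 225 to 280 for the change of slope. On the linear CPM scale the median share of change by 48 h was 41.7% for genes called higher and 62.4% for those called lower. No named call changed direction under any of these settings. Of the 249, 71 were lost with glmTreat, 23 with DESeq2 and effective lengths, 18 with effective lengths in edgeR and 4 with DESeq2 alone. Leaving out 1 library lost at most 12. Of the genes described above, CCDC80, CLSPN, BBC3, GATA3, CCND1, HBEGF, EFEMP1, ATF3, CAVIN1 and KRT14 were not called with glmTreat. CAVIN1 also lost its call with upper-quartile factors, other filters and gene sets and only the groups compared. Low counts limited the precision for SERPINB4, COL6A3, SLC2A3, DEPP1 and the BCL2 family call other than HRK.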
